A study of Xenopus tropicalis with 20 samples.

Results

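A set of 9 genes of the tricarboxylic acid cycle was followed in the liver of Xenopus tropicalis, the tropical clawed frog: cs, idh3a, idh3b, ogdh, suclg1, suclg2, sucla2, fh and mdh2. They were found by their symbol in the gene tables of 20 liver libraries. All 9 of these genes, of 20372 named genes in all, were present and carried a sound estimate (status OK) in all 20 libraries, and all 9 were among the 10228 genes tested. The files give no gene product for them beyond the symbol, so the roles below are those known for the enzymes of this name, mainly from mammals.

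The cycle runs in the mitochondrial matrix. It oxidises the acetyl group of acetyl-CoA to carbon dioxide, passes the electrons to NADH and to the succinate dehydrogenase of the respiratory chain, and makes GTP or ATP at the succinyl-CoA ligase step. In liver its intermediates also leave for the synthesis of glucose, fatty acids, heme and amino acids, and other entries refill them. Citrate synthase (cs) opens the cycle, isocitrate dehydrogenase (idh3a and idh3b) and the oxoglutarate dehydrogenase complex (ogdh) release carbon dioxide, succinyl-CoA ligase (suclg1 with suclg2 or sucla2) yields succinate, and fumarate hydratase (fh) and malate dehydrogenase (mdh2) lead back to oxaloacetate.

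The livers came from mature females in 4 groups of 5 libraries. F1 mixture and F2 mixture females descended from founder frogs (F0) kept, as tadpoles and until they were mature adults, in 50 ng/L of a mixture of 2 pollutants: BaP, or benzo[a]pyrene, from combustion, and TCS, or triclosan, an antiseptic. F1 control and F2 control females were control offspring of the same generations, and according to the treatment protocol no F1 or F2 female was exposed, although the design text calls them exposed. The labels do not say whether the concentration is that of each compound or of both together. Each replicate was 15 mg of liver, and the labels name neither the animals nor the clutches, so the p-values measure only the spread between these samples, which may include sisters. The design text says that the control reads came from an earlier series, so a difference in when control and mixture libraries were made cannot be told apart from the mixture.

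Expression was measured as FPKM, a fragment number corrected for how long the transcript is and for the total of mapped fragments, and each library was divided by a median-ratio scaling factor of 0.717 to 1.26. Levels below are scaled FPKM, which is per length and so can be compared between genes, and fold changes are log2 differences of scaled FPKM plus 1, given ± SE. The files hold no read counts. For the 9 genes the deposited confidence limits lay 2.99% to 14.2% of the value away from it, which covers the error of 1 library and not the spread between livers. The libraries carried all 12 hepatocyte markers looked for, summing to 3890 to 14999 scaled FPKM, while the oocyte and the pancreas and gut markers summed to at most 3.56 and 3.28. Blood was present: 8 erythrocyte markers measured in every library summed to 553 to 1065 in F1 control, 288 to 4540 in F1 mixture, 2090 to 6012 in F2 control and 851 to 5513 in F2 mixture livers. In bulk liver RNA, fewer cells of a type and less RNA per cell cannot be told apart.

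The 9 genes differed widely in level. suclg1 was the highest of the 9 in all 20 libraries, with group means ± SD (n = 5) from 64.0 ± 28.6 scaled FPKM in F1 control to 178 ± 61.0 in F2 mixture livers. mdh2 came next by group mean in every group, though in F1 control livers its mean of 22.9 ± 10.3 stood beside 21.9 ± 3.59 for idh3b, and it was the higher of the pair in only 2 of 5 libraries. sucla2 was the lowest by mean in F1 control (4.03 ± 1.5), F1 mixture (6.18 ± 1.51) and F2 mixture livers (6.44 ± 0.738), whereas in F2 control livers ogdh was lowest at 8.57 ± 2.97. Neighbours in the order often did not separate: fh lay above cs in 3 of 5 F1 control libraries, and cs above fh in 4 of 5 F2 control libraries.

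**Figure D1:**
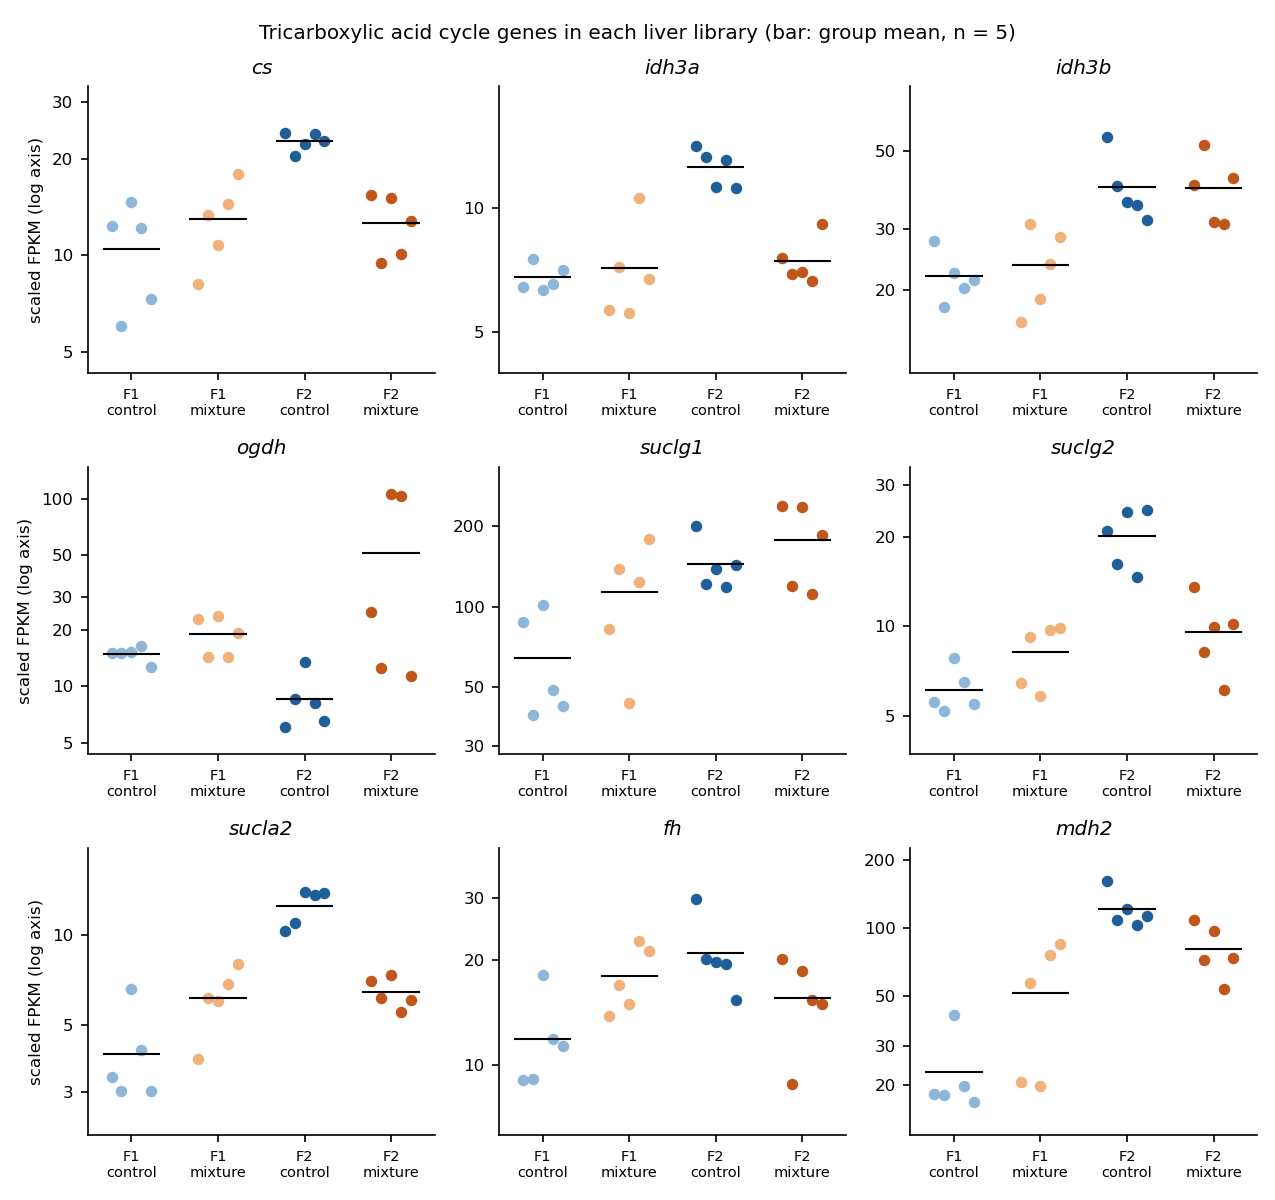
Level of each of the 9 cycle genes, as scaled FPKM on a log axis, in each library (points) of the 4 groups, with the group mean as a bar (n = 5). For cs, idh3a, suclg2 and sucla2 the 5 F2 control libraries stand above all 5 F2 mixture libraries, while for ogdh 2 F2 mixture libraries stand at 106 and 104.

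In the F2 generation, where mixture offspring were compared with control offspring, 4 of the 9 genes were lower in the mixture group and 1 was higher. The lower ones were cs, idh3a, suclg2 and sucla2, and the higher one was ogdh. idh3b, suclg1, fh and mdh2 did not pass the test. Over all 10228 genes 25.7% passed in this comparison, 11.3% higher and 14.5% lower, and the median fold change was -0.04, against -0.60 over the 9 genes. Without scaling of the libraries the calls over all genes numbered 624 higher and 1337 lower, against 1151 and 1479 with it, and the same 5 cycle genes passed under each of 32 alternative settings. The authors' deposited table for F2 marked cs (q = 0.0356), ogdh (0.000955), suclg2 (0.0113) and sucla2 (0.0356) as significant, in the same direction, and the other 5 genes not, where it marked 20.3% of the genes it tested.

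Marker sums of 2 cell types were lower in most F2 mixture libraries. The hepatocyte marker sums of F2 mixture libraries 1 to 5 were 14236, 4520, 9417, 5972 and 8125 scaled FPKM, so that 4 of 5 lay below every F2 control library (10338 to 14999), and 4 of the 12 hepatocyte markers passed as lower and 0 as higher. By mean log2 level of the 12 markers, these libraries read 9.74, 7.60, 9.16, 8.33 and 8.86, against 8.58 to 9.35 in F2 control libraries. Libraries 2 and 4 thus lay below every F2 control library, and library 1 above all of them. The part of the hepatocyte markers in the results for the cycle genes was not tested. The erythrocyte sums of 4 of the 5 F2 mixture libraries also lay below every F2 control library, but 0 of 8 tested erythrocyte markers passed. By mean log2 level, F2 mixture libraries 2, 4 and 5 (7.17, 6.08 and 5.76) lay above F2 control library 5 (5.70). The 5 cycle genes passed with the mean erythrocyte level in the model as well. Of 8 tested macrophage and leukocyte markers 1 passed as higher and 2 as lower. Of 6 endothelial and stellate markers 2 passed as higher and 2 as lower, and of 5 biliary markers 0 and 1.

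Citrate synthase (cs, chromosome 2, 137292232 to 137311475) joins acetyl-CoA to oxaloacetate. Its levels in F2 control libraries 1 to 5 were 24.0, 20.4, 22.2, 23.9 and 22.7 scaled FPKM, and in F2 mixture libraries 1 to 5 they were 15.4, 9.47, 15.1, 10.1 and 12.8. The 2 groups did not overlap, which held in this direction for 7.38% of all genes tested and for 4 of the 9. The fold change was -0.82 ± 0.23, with an adjusted p = 0.0118. In F1 control livers (libraries 1, 2, 3, 4 and 6) cs stood at 12.3, 6.02, 14.6, 12.2 and 7.32, and in F1 mixture livers (libraries 1, 4, 8, 9 and 13) at 8.13, 13.4, 10.8, 14.4 and 17.9. The F2 mixture levels thus fell within the span of the F1 mixture group, and the F2 control levels lay above every F1 library.

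Isocitrate dehydrogenase 3 (IDH3) is the NAD-dependent enzyme of the cycle, a complex of a catalytic alpha subunit with beta and gamma subunits. The alpha subunit gene, idh3a (chromosome 3, 91067931 to 91090496), read 14.2, 13.4, 11.2, 13.1 and 11.2 scaled FPKM in F2 control libraries and 7.57, 6.91, 6.98, 6.64 and 9.14 in F2 mixture libraries. The groups were apart, at -0.69 ± 0.15 (adjusted p = 0.00271). In F1 control livers it read 6.44, 7.53, 6.33, 6.52 and 7.08, and in F1 mixture livers 5.65, 7.19, 5.55, 10.6 and 6.70, with F1 mixture library 9 alone near the F2 control range. The authors' deposited table, whose span for idh3a ends further on, at 91112513, gave a log2 fold change of -0.63 for F2 and did not mark it as significant (q = 0.103).

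The beta subunit gene, idh3b (chromosome 1, 924967 to 941578), did not follow the alpha subunit gene. It read 55.0, 39.7, 35.8, 35.1 and 31.8 scaled FPKM in F2 control libraries and 40.0, 52.0, 31.3, 31.0 and 41.8 in F2 mixture libraries. These overlapped throughout, the fold change being -0.01 ± 0.21 (adjusted p = 0.981). The F1 control levels of idh3b were 27.6, 17.9, 22.4, 20.2 and 21.4, and in F1 mixture livers 16.2, 30.8, 18.8, 23.7 and 28.4. Both F2 groups thus lay above both F1 groups. The gamma subunit gene idh3g read 32.8 ± 3.13 in F2 control and 42.7 ± 6.31 in F2 mixture livers, a fold change of 0.36 ± 0.20 that did not pass (adjusted p = 0.188).

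Within each library, the ratio of idh3a to idh3b separated the F2 mixture group from the others. This ratio uses the same values as the fold changes above and was chosen with earlier results of these data known. Its p-values are thus not independent of those fold changes. How often the ratio of other gene pairs separates the groups was not determined. The linear ratio was 0.258, 0.337, 0.314, 0.373 and 0.352 in F2 control libraries and 0.189, 0.133, 0.223, 0.214 and 0.219 in F2 mixture libraries. Every F2 mixture library lay below every F2 control library, and also below every F1 library (lowest F1 value 0.233). The mean log2 ratio differed by -0.75 between the F2 groups (exact permutation test, two-sided, p = 0.00794, the smallest that 5 libraries against 5 allow; adjusted p = 0.0317 over 12 comparisons of ratios). Taken by pairs of F2 libraries of the same number, p was 0.0625, the smallest that 5 pairs allow (exact permutation test, adjusted p = 0.375). A call under 0.05 was thus not possible by pairs. Between F2 mixture and F1 mixture the mean log2 ratio differed by -0.65 (exact permutation test, p = 0.00794, adjusted p = 0.0317). Between F1 mixture and F1 control it differed by -0.04 (exact permutation test, p = 0.849).

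The gene ogdh (chromosome 3, 126356124 to 126385122) encodes the E1 subunit of the oxoglutarate dehydrogenase complex, which turns 2-oxoglutarate into succinyl-CoA. In F2 control libraries it read 6.09, 8.58, 13.5, 8.15 and 6.49 scaled FPKM, and in F2 mixture libraries 25.0, 12.5, 106, 104 and 11.3. Mixture libraries 3 and 4 stood far above the rest, library 1 was between, and libraries 2 and 5 lay below the highest control library, so the groups overlapped. The fold change was 1.90 ± 0.47 (adjusted p = 0.00662). It was 1.49 ± 0.43 (adjusted p = 0.0205) without mixture library 3 and 1.5 ± 0.43 (adjusted p = 0.0231) without mixture library 4. No fit left out both of these libraries.

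The F1 levels of ogdh were 15.0, 15.1, 15.2, 16.3 and 12.7 scaled FPKM in control livers and 22.9, 14.3, 23.8, 14.4 and 19.2 in mixture livers. All 20 libraries but the 3 high F2 mixture ones thus lay between 6.09 and 23.8. The other parts of the same complex did not move with ogdh in F2: dlst, the E2 subunit, was at -0.17 ± 0.16 (adjusted p = 0.464), and dld, the E3 subunit that other dehydrogenase complexes share, fell by 0.64 ± 0.18 (adjusted p = 0.0147).

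Succinyl-CoA ligase is a dimer of a shared alpha subunit, suclg1, with 1 of 2 beta subunits. In mammals suclg2 makes the GTP-forming enzyme and sucla2 the ATP-forming one. Both beta subunit genes were lower in F2 mixture livers and the alpha subunit gene was not.

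The GTP-type beta subunit gene suclg2 (chromosome 4, 142978900 to 143118112) read 21.0, 16.2, 24.3, 14.7 and 24.6 scaled FPKM in F2 control libraries and 13.5, 8.18, 9.96, 6.10 and 10.2 in F2 mixture libraries. The lowest control library stood just above the highest mixture library, and the fold change was -1.01 ± 0.20 (adjusted p = 0.00163). Its F1 control levels were 5.57, 5.20, 7.82, 6.48 and 5.48, and in F1 mixture livers 6.44, 9.21, 5.82, 9.73 and 9.86. Every F1 library was thus below every F2 control library.

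The ATP-type beta subunit gene sucla2 (chromosome 2, 134834900 to 134859430) read 10.3, 11.0, 13.9, 13.5 and 13.8 scaled FPKM in F2 control libraries and 7.05, 6.16, 7.34, 5.54 and 6.09 in F2 mixture libraries. Here the gap between the groups was wider than the span within the mixture group, and the fold change was -0.85 ± 0.18 (adjusted p = 0.00256). The F1 control levels of sucla2 were 3.36, 3.03, 6.59, 4.13 and 3.03, and its F1 mixture levels 3.87, 6.15, 6.01, 6.87 and 8.0.

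The alpha subunit gene suclg1 (chromosome 1, 9775906 to 9796087) read 200.3, 121, 139, 118 and 143 scaled FPKM in F2 control libraries and 238, 119, 236, 112 and 186 in F2 mixture libraries. These overlapped, with a fold change of 0.26 ± 0.36 (adjusted p = 0.625). In F1 control livers it read 87.7, 39.3, 101, 49.0 and 42.4, and in F1 mixture livers 82.2, 138, 43.8, 123 and 179.6, a wide span in both groups.

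Set against its partners, suclg1 was in larger excess in F2 mixture livers. This ratio too uses the same values as the fold changes of its genes, so it is not independent of them. The ratio of suclg1 to the sum of suclg2 and sucla2 was 6.41, 4.47, 3.64, 4.18 and 3.73 in F2 control libraries and 11.6, 8.33, 13.7, 9.60 and 11.4 in F2 mixture libraries. The groups did not overlap, and the mean log2 ratio differed by 1.29 (exact permutation test, p = 0.00794, adjusted p = 0.0317). F1 libraries ran from 3.70 to 10.1 and overlapped both F2 groups. In contrast, no difference was found in the ratio of sucla2 to suclg2: its mean log2 value was -0.67 ± 0.35 (SD, n = 5) in F2 control and -0.53 ± 0.31 in F2 mixture livers (exact permutation test, p = 0.516), and the adjusted p over the 4 group comparisons ran from 0.397 to 0.905. By pairs of libraries the ratio of suclg1 to its partners gave p = 0.0625, the smallest that 5 pairs allow (exact permutation test, adjusted p = 0.375). A call under 0.05 was thus not possible by pairs. Without F2 mixture library 2 or 3, the F2 differences in the ratio of idh3a to idh3b and of suclg1 to its partners kept their direction, each with an adjusted p of 0.0952.

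**Figure D2:**
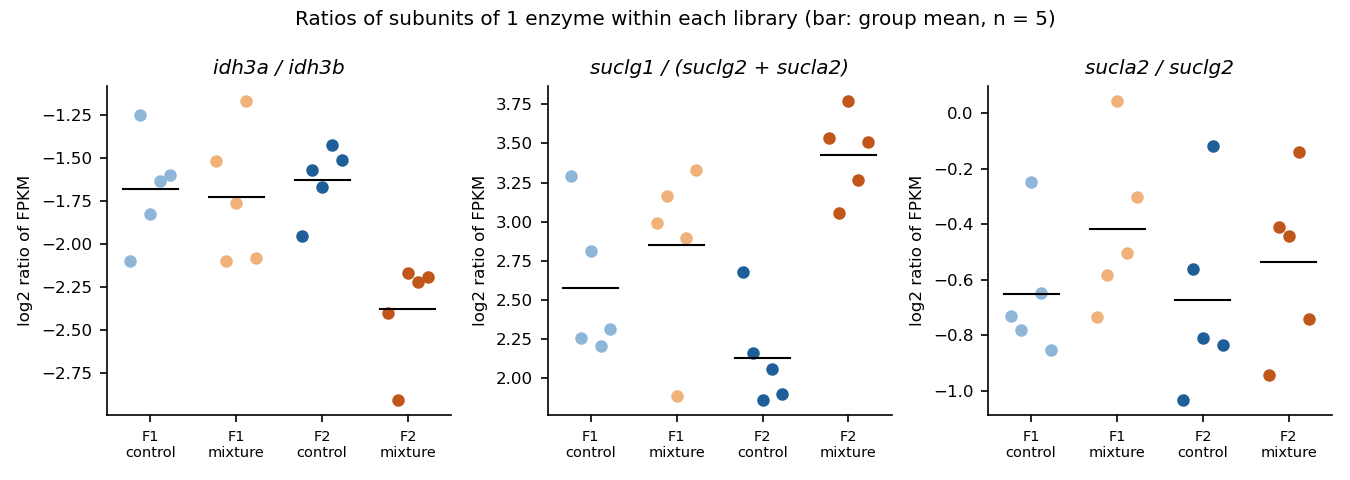
Log2 ratio of the FPKM of subunits of the same enzyme within each library (points), by group, with the group mean as a bar (n = 5). The F2 mixture libraries lie below all others for idh3a to idh3b and above the F2 control libraries for suclg1 to the sum of suclg2 and sucla2, while sucla2 to suclg2 overlaps among all groups.

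Fumarate hydratase (fh, chromosome 5, 57435413 to 57464671) adds water to fumarate to give malate. It read 29.8, 20.1, 19.7, 19.5 and 15.4 scaled FPKM in F2 control libraries and 20.1, 8.85, 18.5, 15.3 and 14.9 in F2 mixture libraries. The groups overlapped and the fold change of -0.42 ± 0.23 did not pass (adjusted p = 0.186). The F1 control levels of fh were 9.09, 9.15, 18.1, 11.9 and 11.4, and in F1 mixture livers 13.8, 17.0, 14.9, 22.7 and 21.2.

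Mitochondrial malate dehydrogenase (mdh2, chromosome 2, 93879122 to 93891109) oxidises malate to oxaloacetate and serves the malate-aspartate shuttle. It read 162, 109, 122, 103 and 113 scaled FPKM in F2 control libraries and 108, 72.4, 97.0, 53.8 and 74.0 in F2 mixture libraries. Only mixture library 1 reached the control range, but the fold change of -0.60 ± 0.36 did not pass (adjusted p = 0.232). With only the F2 groups fitted it did not pass either (adjusted p = 0.0787). In F1 mixture livers mdh2 varied widely, where it read 20.6, 56.9, 19.9, 76.0 and 84.6.

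In the F1 generation none of the 9 genes passed, and none of the 10228 genes tested did (0%), although 1306 of these had an unadjusted p under 0.05 with limma. All 9 fold changes were positive, with a median of 0.36 against -0.02 over all genes. Those of cs, idh3a and idh3b were not positive under every alternative setting, with lowest values of -0.13, -0.10 and -0.10. The largest were mdh2 at 0.98 ± 0.36 (adjusted p = 0.329), suclg1 at 0.77 ± 0.36 (0.380), fh at 0.57 ± 0.23 (0.356) and sucla2 at 0.53 ± 0.18 (0.301). These 4 passed when libraries were weighted by how closely their values followed the fit, called arrayWeights (adjusted p from 0.0168 for mdh2 to 0.0340 for suclg1). In that fit 1129 of the 10228 genes passed in all, 502 higher and 627 lower. The weights came from the same expression values. Among F1 libraries they were lowest for F1 mixture libraries 1 (0.447) and 8 (0.555) and F1 control library 3 (0.566). The authors' deposited table for F1 marked suclg1 (q = 0.0454) and mdh2 (q = 0.0139) as significant and the other 7 not, and it marked 2.43% of the genes it tested.

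The F1 values of mdh2 were spread in both groups. F1 control libraries read 18.3, 18.2, 41.2, 19.8 and 16.8 scaled FPKM, so library 3 stood alone. F1 mixture libraries 1 and 8 were at the level of the other controls, and libraries 4, 9 and 13 were above all F1 controls. The 8 erythrocyte markers summed to 288 and 439 scaled FPKM in mixture libraries 1 and 8, and to 3852, 4540 and 2557 in libraries 4, 9 and 13. The hepatocyte sums were 5630 and 8679 in libraries 1 and 8 and 8346, 13268 and 11957 in libraries 4, 9 and 13. F1 control library 3, the high one for mdh2, had the highest hepatocyte marker sum of its group, 9407 against 3890 to 5851. With the mean erythrocyte level in the model, the F1 fold change of mdh2 was 0.74 ± 0.35 (adjusted p = 0.516). Whether the share of either cell type accounts for the spread of mdh2 was not tested.

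**Figure D3:**
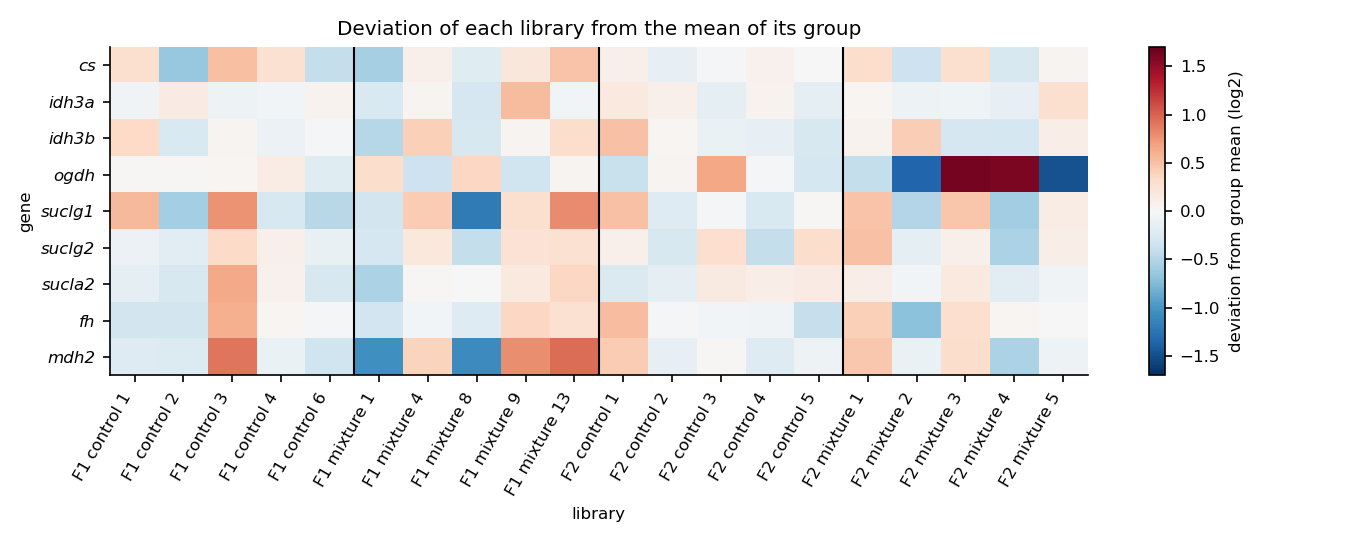
Deviation of each library (columns, by group and library number) from its group mean for each of the 9 genes (rows), on the log2 scale of scaled FPKM plus 1. F1 mixture libraries 1 and 8 lie below their group mean for 8 of the 9 genes and libraries 9 and 13 above it for 8 of the 9, while the strongest colours in F2 mixture livers belong to ogdh.

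Some libraries deviated from their group on most of these genes together, and others, such as F1 control library 4 and F2 mixture library 5, with 5 of 9 genes above the mean, did not. F1 mixture libraries 1 and 8 were below their group mean for all but 1 of the 9 genes, by 0.39 and 0.37 on average (log2), and F1 control library 3 was above it for 8 of 9, by 0.42. After subtracting group means, the 36 pairs of genes had a median Pearson r of 0.44 over the 20 libraries, as a description, since the values of a pair share the library and its scaling. The pair suclg1 and mdh2 had the highest r (0.83, Spearman rho 0.83). Pairs with ogdh had a median of -0.14, and ogdh with idh3b the lowest of all (r = -0.58, rho = -0.70).

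The mixture effects of the 2 generations were then compared with each other, as the F2 effect minus the F1 effect. This difference passed for 6 of the 9 genes, all negative, where 20.1% of all genes passed and 10.5% did so in the negative direction. It was also negative and passed for 5 of the 12 hepatocyte markers, whose part here was not tested. Its values were -1.37 ± 0.29 for suclg2 (adjusted p = 0.00374), -1.38 ± 0.26 for sucla2 (0.00215), -1.12 ± 0.32 for cs (0.0193), -0.72 ± 0.21 for idh3a (0.0221), -0.99 ± 0.32 for fh (0.0373) and -1.58 ± 0.51 for mdh2 (0.0363). The differences for ogdh (1.60 ± 0.67, adjusted p = 0.0946), suclg1 (-0.52 ± 0.50, 0.485) and idh3b (-0.09 ± 0.29, 0.862) did not pass. In the fit with the replicate block none of the 9 passed (adjusted p = 0.0520 for sucla2 and 0.0570 for suclg2). That block gave each library number a term over both generations. F1 control library 6 and F1 mixture libraries 8, 9 and 13 share their number with no other library. These libraries thus added nothing to the group estimates, and the F1 mixture group rested on libraries 1 and 4. With the mean erythrocyte level in the model only sucla2 and suclg2 passed. The calls of fh and mdh2 also ended without F1 control library 1, 2, 4 or 6, F1 mixture library 4, 9 or 13, F2 control library 1 or 3, or F2 mixture library 4 or 5, that of fh also without F2 control library 2, and that of mdh2 also without F2 control library 5 (adjusted p = 0.0509 to 0.0759).

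The groups of the 2 generations were also compared directly. These comparisons use the same libraries as those above, so their values are not independent of them. Between the control groups, 8 of the 9 genes were higher in F2 than in F1, and 7 of these did not overlap. This was the comparison in which most genes moved, with 55.9% of all genes passing, 27.4% higher and 28.5% lower, and 20.3% not overlapping with F2 higher. Without scaling the calls over all genes numbered 1983 higher and 3479 lower, against 2804 and 2918, the median of all genes shifted from -0.03 to -0.22, and the same number of cycle genes, 8, passed.

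Among the 8, mdh2 had the largest fold change, 2.43 ± 0.36 (adjusted p = 2.5e-05), with group means of 22.9 ± 10.3 and 122 ± 23.5 scaled FPKM. suclg2 followed at 1.56 ± 0.20 (6.87e-06) and sucla2 at 1.46 ± 0.18 (5.16e-06), then suclg1 at 1.24 ± 0.36 (0.00599), cs at 1.10 ± 0.23 (0.00043), idh3b at 0.81 ± 0.21 (0.00272), idh3a at 0.80 ± 0.15 (0.000185) and fh at 0.77 ± 0.23 (0.00755). fh was the gene of these whose groups overlapped. ogdh was at -0.78 ± 0.47 and did not pass (adjusted p = 0.168), but it did when only the 2 control groups were fitted (-0.81, adjusted p = 0.00358). The erythrocyte marker sums of F2 control livers (2090 to 6012) all lay above those of F1 control livers (553 to 1065), and the hepatocyte sums too (10338 to 14999 against 3890 to 9407). By mean log2 level the hepatocyte markers overlapped, with F2 control library 2 (8.58) below F1 control library 3 (8.98). Of 12 hepatocyte markers 5 passed as higher and 1 as lower, and of 8 erythrocyte markers 4 and 0. Among all genes 27.4% passed as higher and 28.5% as lower. With the mean erythrocyte level in the model 6 of the 9 passed, idh3b (0.45 ± 0.19, adjusted p = 0.0688) and suclg1 (1.02 ± 0.42, 0.0597) no longer did, and mdh2 was at 1.95 ± 0.39.

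Between the mixture groups, only idh3b passed, higher in F2 by 0.72 ± 0.21 (adjusted p = 0.0263) with no overlap, where 14.2% of all genes passed, 6.06% were called higher in F2 and 3.18% were higher with no overlap. That call ended without F1 mixture library 1 (adjusted p = 0.0781) or 8 (0.0684), and without F2 mixture library 1 (0.0518) or 2 (0.0627). It also ended with the replicate block (0.219), without scaling (0.119), with arrayWeights (0.0933) and with only the mixture groups fitted (0.0940). For cs, idh3a, suclg2 and sucla2, the genes lower in F2 mixture than in F2 control livers, the F2 mixture group stood at -0.02 ± 0.23, 0.08 ± 0.15, 0.19 ± 0.20 and 0.07 ± 0.18 relative to F1 mixture livers. mdh2 stood at 0.85 ± 0.36 (adjusted p = 0.118) and ogdh at 0.82 ± 0.47 (0.242).

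**Figure D4:**
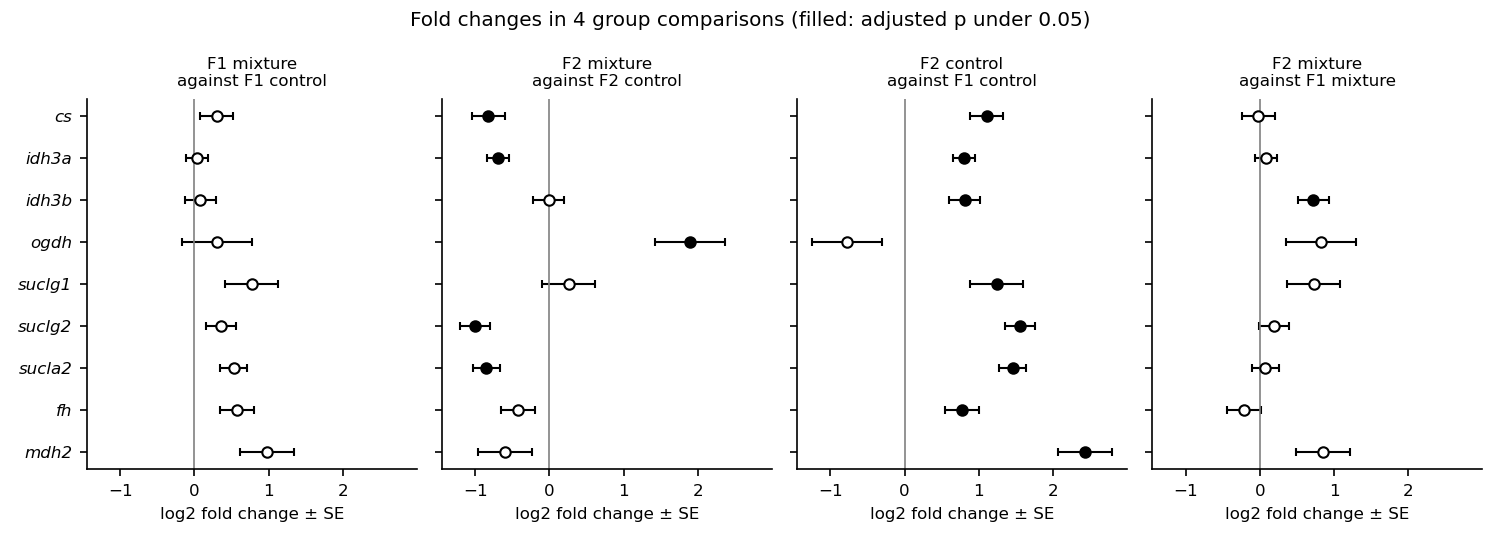
Log2 fold change ± SE of the 9 genes in 4 group comparisons, with filled points for an adjusted p under 0.05. Filled points number 0 in F1 mixture against control, 5 in F2 mixture against control (ogdh alone to the right), 8 in F2 control against F1 control and 1 (idh3b) in F2 mixture against F1 mixture.

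The list of further enzymes and subunits of the cycle held 8 genes: idh3g, idh2, dlst, dld, sdha, sdhb, sdhc and sdhd. In F2 mixture against F2 control livers, 1 of them rose and 2 fell, with a median of -0.23, where 11.3% of all genes were higher and 14.5% lower. The subunits of succinate dehydrogenase, which oxidises succinate and feeds the respiratory chain, went different ways: sdhb, the iron-sulfur subunit, rose by 0.66 ± 0.23 (adjusted p = 0.0391), sdhd, a membrane anchor, fell by 0.55 ± 0.17 (0.0233), and the flavoprotein gene sdha (-0.29 ± 0.19) and the other anchor gene sdhc (0.03 ± 0.28) did not pass. The sdhb call did not hold in the fit with the replicate block (adjusted p = 0.0862) nor without any 1 of F2 control libraries 2, 4 and 5 and F2 mixture libraries 2 to 5 (0.0506 to 0.0999), and the sdhd call without library 3 of either F2 group (0.0506 and 0.0544). dld fell as given above. idh2, the NADP-dependent mitochondrial isocitrate dehydrogenase and higher in group mean than any of the 9 genes above, went from 834 ± 81.9 to 453 ± 217 scaled FPKM, or -1.02 ± 0.38, and missed the threshold (adjusted p = 0.0520), which it passed when only the F2 groups were fitted (0.0402).

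Between control groups, 4 of these 8 were higher in F2 (idh2 at 2.56 ± 0.38, sdhc at 1.47 ± 0.28, dld at 0.80 ± 0.18 and sdhd at 0.65 ± 0.17) and 1 was lower (idh3g at -0.78 ± 0.20). Over all genes 27.4% were higher and 28.5% lower. The idh3g call ended with the mean erythrocyte level in the model (adjusted p = 0.0601) and that of sdhd without scaling (0.105). In F1 mixture against control livers none passed, from -0.19 for idh3g to 0.61 for sdhc. Between mixture groups sdhc was higher in F2 by 0.89 ± 0.28 (adjusted p = 0.0398), a call that ended without F1 mixture library 1 or 8 or F2 mixture library 1, 2 or 3 (0.0691 to 0.115). The gamma subunit gene of IDH3 thus went down between control generations where the alpha and beta subunit genes went up.

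Cytosolic enzymes that handle the same metabolites were lower as well in F2 mixture livers. Of the 5 looked at, 4 fell, none rose, and the median was -1.03, where 14.5% of all genes fell: me1, the NADP-dependent malic enzyme, at -1.45 ± 0.25 (adjusted p = 0.000541), aco1, cytosolic aconitase and iron regulatory protein, at -0.95 ± 0.18 (0.00133), got1, cytosolic aspartate aminotransferase, at -1.03 ± 0.28 (0.0124), and idh1, cytosolic isocitrate dehydrogenase, at -1.21 ± 0.34 (0.0142). The cytosolic malate dehydrogenase gene mdh1 was at -0.59 ± 0.27 and did not pass (adjusted p = 0.111). Between control groups, where 27.4% of all genes passed as higher, mdh1 was higher in F2 (1.26 ± 0.27), like mdh2, and the other 4 did not pass.

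In F2 mixture against control livers 14.5% of all genes fell and 11.3% rose. Of 8 tested genes for pyruvate entry and its control, 1 fell: pdk1, a kinase that inhibits pyruvate dehydrogenase, at -0.41 ± 0.15 (adjusted p = 0.0467). Of 9 tested feeders, exits and carriers, 2 fell: got2, the mitochondrial aspartate aminotransferase, at -1.0 ± 0.20 (0.00164) and me3, a mitochondrial malic enzyme, at -0.82 ± 0.23 (0.0146). Of 8 genes for lipoylation, assembly and related dehydrogenases, lipt2, a lipoyl transferase, rose by 1.52 ± 0.26 (0.00056) and gcsh, the lipoyl-carrying protein of the glycine cleavage system, fell by 1.03 ± 0.24 (0.00415). Of 7 regulators of mitochondrial biogenesis 1 fell, gabpa, a transcription factor subunit, at -0.37 ± 0.13 (0.0397). The pdk1 call ended without any single library other than F2 control 1 and F2 mixture 2 (adjusted p = 0.0507 to 0.117), and the gabpa call without F2 control library 1, 2, 4 or 5 or F2 mixture library 1, 3, 4 or 5 (0.0507 to 0.105). That of me3 ended without F2 mixture library 4 (0.0513).

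A list of 14 mitochondrial genes outside the cycle served to compare the cycle with the organelle. In F2 mixture against control livers 3 fell (14.5% of all genes did), none rose, and the median was -0.24: vdac2, a channel of the outer membrane, at -1.05 ± 0.27 (adjusted p = 0.00733), and the import genes tomm40 at -0.78 ± 0.20 (0.00914) and timm23 at -0.74 ± 0.26 (0.0444). Between control groups 8 of the 14 were higher in F2 and 1 lower (27.4% and 28.5% of all genes), with a median of 0.96 against 1.10 for the 9 cycle genes. The lower one was lonp1, a matrix protease, at -1.53 ± 0.18. The F2 call of timm23 ended without F1 control library 4 or 6, F1 mixture library 4, F2 control library 1, 2, 4 or 5 or F2 mixture library 2, 3, 4 or 5 (adjusted p = 0.0508 to 0.111).

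**Figure D5:**
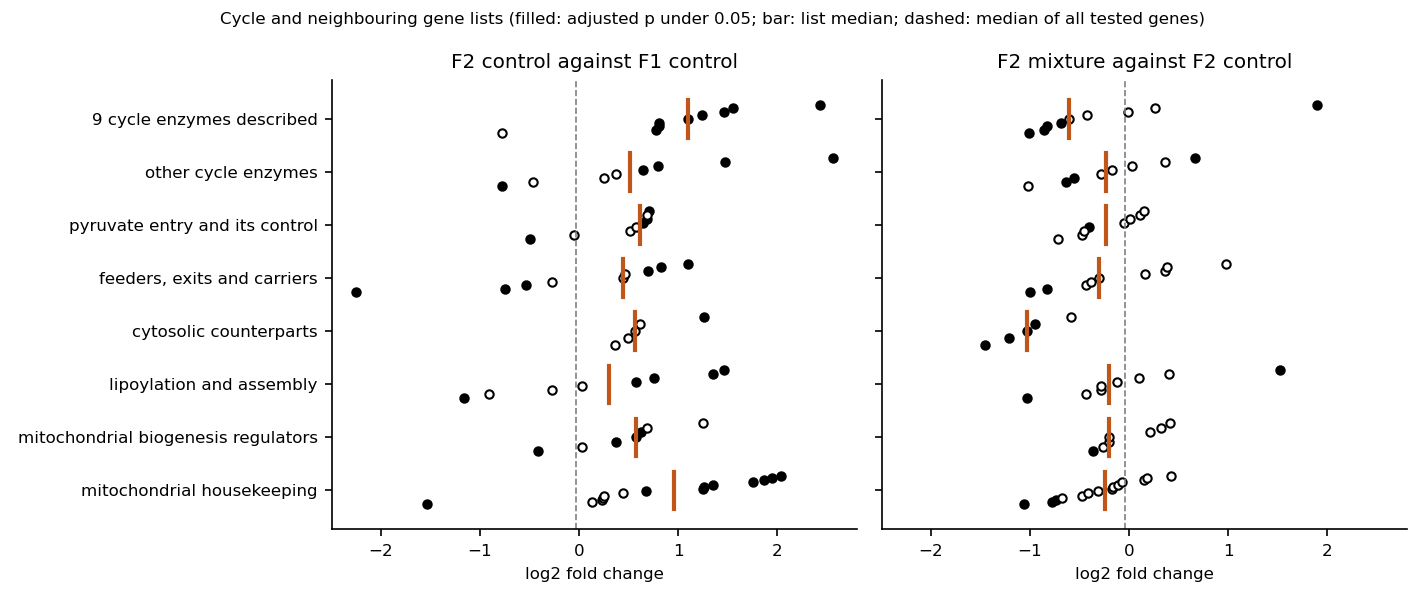
Log2 fold change of each tested gene (points, filled for an adjusted p under 0.05) in the 9 cycle genes and 7 neighbouring lists, with the list median as a bar and the median of all tested genes as a dashed line. Between control groups the 9 genes have a median of 1.10, and in F2 mixture against F2 control livers -0.60.

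Outside these lists, up to 3 genes most like each cycle gene were taken by Pearson r of the log2 level over the 20 libraries, among 10084 genes, as a description. The groups and the library scaling enter these values. For mdh2 they were slc25a5, eif3i and cox5a (r = 0.984, 0.982 and 0.981), for suclg1 the ribosomal protein genes rpl15, rpl39 and rps9 (0.982, 0.979 and 0.978), and for suclg2 acadl, tmem97 and snd1 (0.963, 0.960 and 0.958). For sucla2 they were tm9sf3, sec63 and tmed2 (0.962, 0.960 and 0.950), for idh3b MGC75752, birc2 and bcl2l1 (0.956, 0.944 and 0.940), and for idh3a prxl2c, eral1 and inmt (0.948, 0.939 and 0.937). For ogdh pde3b, cdc42bpb and cpne3 came first (0.939, 0.925 and 0.922, and 0.834, 0.876 and 0.768 without the 2 libraries farthest from the median of ogdh). For cs they were txndc5, sdr16c5 and abhd14b (0.935, 0.932 and 0.931), and for fh csnk2b and tmco1 (0.904 and 0.879).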

How the data were processed

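Liver RNA of 20 females was sequenced as 75 bp reads from TruSeq Stranded mRNA libraries, per the labels' protocols. Per the submitters' processing notes the authors used Trimmomatic 0.32.1, HISAT2, Cufflinks 0.0.7 and Cuffdiff 0.0.7, in no stated order. The genome build, the annotation and whether counting used strand are not given in the sources used here. Among 20362 named genes matched to the RefSeq gene table of UCB_Xtro_10.0, 99.0% had the same start and end, so coordinates are those of the deposited tables, counted from 1, on that assembly. idh3a overlapped cib2 by 11 bases, and cib2 was listed at 0 in every library.

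The authors deposited 1 table of FPKM per library, with confidence limits in FPKM and a status. They also deposited 2 Cuffdiff tables which per the file headers give, for each gene, group means in FPKM, the log2 fold change, Cuffdiff's score, and its p-value with a q-value. These are quoted only as the authors' deposited table. The tables hold no counts, so the depth per library is unknown.

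Values with a status other than OK were set to missing, and 70 of 20442 lines without a gene name (at most 0.00856% of summed FPKM) were left out. FPKM was divided by a median-ratio factor from 6971 genes and log2 taken after adding 1, which understates the change of low genes. Genes whose mean FPKM reached 1 and that had at least 3 OK values per group were tested. The test was limma (version 3.58.1, R 4.3.3), two-sided, with a variance trend. It fitted the 4 group means to all 20 libraries together, and p-values were adjusted over the 10228 genes by Benjamini-Hochberg with a threshold of 0.05. Ratios were taken on FPKM without the added 1 and tested by exact permutation over all arrangements, written in Python 3.11.15 with numpy 2.4.6. Spearman rho was computed with scipy 1.17.1. The procedure was tested on simulated data. The members, lists, tests and naming rules were chosen with earlier results of these data known. The rule was to name all 9 members, the other cycle enzymes listed, up to 3 called genes of smallest p per further list and comparison, and the 3 genes of highest r per member. Some genes under this rule are not reported here. The titles number the libraries. The names of the F1 mixture 9 and 13 tables carry each other's number, and the sample of deposit was used. F2 control and F2 mixture libraries of the same number had r = 0.385, 0.369, 0.154, 0.104 and 0.169 between their deviations over 10193 genes. On these values alone the numbers were taken to pair them in the ratio tests by pairs. Libraries of different numbers were not compared in this way, so whether the numbers mark true pairs was not tested. The main test used no pairs. F1 pairs 1 and 4 had r = -0.02 and -0.19. F1 mixture and F2 mixture libraries of number 1 and 4 had r = -0.19 and -0.24, so these values give no ground for pairing across generations. Alternatives were other pseudocounts, filters, scalings and weights, a replicate block, an erythrocyte covariate and leaving out each library. The replicate block had a term for each library number over both generations. Genes pc, pdk2 and sdhaf1 were not analysed here, and pdk3, pdp1, pdp2, me2, lipt1 and ppargc1b were under the filters.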

Additional observations from a re-analysis of the deposited data

Results flagged for a closer look

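Of 48 sets of 5 values examined for a library far from the rest of its group, 1 stood out. Chance alone makes about 1 set in 20 stand out, so 1 of 48 is not more than chance gives. The set was mdh2 in F1 control, with library 3 at 41.2 scaled FPKM against 16.8 to 19.8 in the other 4. That library also had the highest hepatocyte marker sum of its group (9407), and whether the 2 are related was not tested. Leaving it out changed the F1 fold change of mdh2 from 0.98 to 1.20 (adjusted p = 0.112).

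For 6 genes the mixture effect differed between generations by a test of the difference itself (F2 minus F1, limma, adjusted over all genes). The values were -1.12 for cs, -0.72 for idh3a, -1.37 for suclg2, -1.38 for sucla2, -0.99 for fh and -1.58 for mdh2. In all 6 the F1 effect in the main fit was above 0 and did not pass, and the F2 effect was below 0 and passed for cs, idh3a, suclg2 and sucla2. None of the 6 differences passed with the replicate block, and only those of suclg2 and sucla2 did with the erythrocyte covariate. Between control groups all 6 genes were higher in F2, by 0.77 (fh) to 2.43 (mdh2), and none of the 6 passed between mixture groups.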

How the results depend on the processing

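The 5 F2 calls among the cycle genes held under all 32 alternatives, with ogdh between 1.49 and 2.27. Every alternative kept at least 1 of the 2 F2 mixture libraries far highest for ogdh, so whether its call rests on them was not tested. The 8 calls between control groups held except idh3b and suclg1 with the erythrocyte covariate. Leaving out 1 library gave 0 to 24 called genes in F1, 1774 to 3287 in F2, 1380 to 2750 for the difference of effects, 5216 to 5929 between controls and 770 to 1523 between mixture groups. Of the 9 cycle genes it gave 0 in F1, 5 in F2, 4 to 7 for the difference, 8 between controls and 0 to 1 between mixture groups. For the difference of effects, fh held in 17 and mdh2 in 16 of 31 alternatives. The idh3a call for the difference ended without scaling (adjusted p = 0.0717). Over all genes, F1 calls numbered 4 without a filter on low values, 3 without scaling, 1 with quantile normalization, 2 with the length trend removed, 2 with the replicate block, 2 with the erythrocyte covariate and 1129 with arrayWeights, where 4 cycle genes passed. With a mean FPKM of at least 5 the calls numbered 1486 in F2, 1358 for the difference, 3146 between controls and 753 between mixture groups, where 5223 genes were tested. The difference of effects had 3864 calls with arrayWeights, 380 with the replicate block (0 cycle genes) and 1271 with the erythrocyte covariate (2 cycle genes). Between mixture groups there were 784 with arrayWeights, 495 with only the 2 groups fitted and 198 with the replicate block, and 0 cycle genes in each of these and without scaling. With the replicate block the F2 calls numbered 2319, and no call among the 9 cycle genes changed in F2.

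In F2 all 5 libraries have a pair, so the mean differences by pairs must equal the unpaired ones, and 5 pairs allow no p below 0.0625. They were -0.75 for idh3a to idh3b and 1.29 for suclg1 to its partners (exact permutation, adjusted p = 0.375 for each). Between mixture groups idh3a to idh3b differed by -0.50 (2 pairs). Direction changed for idh3a to idh3b in F1 (0.06 by 2 pairs, -0.04 unpaired). It also changed for sucla2 to suclg2 between mixture groups (0.12 by 2 pairs, -0.12 unpaired). Leaving out 1 library, the F2 differences ran from -0.84 to -0.62 for idh3a to idh3b, from 1.21 to 1.43 for suclg1 to its partners and from 0.04 to 0.28 for sucla2 to suclg2. The F1 differences ran from -0.18 to 0.06, 0.16 to 0.52 and 0.12 to 0.34. Between controls they ran from -0.05 to 0.16, -0.58 to -0.27 and -0.16 to 0.08, and between mixture groups from -0.75 to -0.51, 0.33 to 0.69 and -0.22 to -0.004.

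Some fold changes that did not pass changed sign. With the replicate block these were in F1 cs (-0.13), got1 (-0.17), got2 (0.26) and polrmt (0.015), for the difference slc25a12 (-0.20), and between mixture groups cs (0.30), dlat (-0.24), fh (0.089) and pdk1 (-0.060). Without scaling, between mixture groups, they were dlst (-0.21), idh3a (-0.11), pdk1 (-0.079), sdha (-0.033), sdhd (-0.21) and sucla2 (-0.12), where the median of all genes was -0.21. With the erythrocyte covariate it was idh3b for the difference (0.21). Small fold changes of cycle genes also changed sign under some alternatives. In F1 idh3a and idh3b went down to -0.10, and in F2 idh3b ran from -0.12 to 0.11. Between mixture groups suclg2 went down to -0.01. In the replicate block, F1 control library 6 and F1 mixture libraries 8, 9 and 13 share their number with no other library. They thus added nothing to the group estimates of that fit. The cause of the shifts was not tested. The files give no counts, so depth limits cannot be stated.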
